A study of Mus musculus with 60 samples.

Results

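The paired box (Pax) genes encode transcription factors that pattern the embryonic brain, and 6 of them, Pax2, Pax3, Pax5, Pax6, Pax7 and Pax8, are described here over 5 brain regions and 4 stages. The members were the rows of the deposited expression table whose name equals 1 of these 6 symbols. All 6 were found among the 24378 listed features. They were chosen with earlier results of these data known, and the other listed Pax genes, whose levels were low, were left out. Counts for the 6 set against all genes are thus not those of a choice blind to the data. RNA of embryonic mouse brain pieces had been sequenced in bulk, with 3 libraries per region and stage, 60 libraries in 20 groups. All embryos, in every group, carried the TH-GFP transgene, a fluorescent reporter for tyrosine hydroxylase, and GFP guided the dissection. The groups were ventral forebrain, ventral midbrain, ventral hindbrain, dorsal midbrain and alar plate, each at 4 embryonic days: E11.5 and, at steps of 1 day, E12.5, E13.5 and E14.5. The ventral midbrain pieces covered floor plate and basal plate, per the labels. The labels give no axial level for the alar plate pieces. Nor do they tell whether replicate libraries are of separate embryos, so a p-value here speaks of the spread among samples that may be technical repeats.

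Pax proteins bind DNA through the paired domain, and most also carry a homeodomain, whole or in part. Pax2, Pax5 and Pax8 form a subfamily that acts with the Fgf8 and Wnt1 signals of the isthmic organiser, the signalling centre at the border of midbrain and hindbrain, and later marks subsets of inhibitory neurons. Pax3 and Pax7 form a subfamily that marks the dorsal neural tube and, in the midbrain, the alar plate that becomes the tectum. Pax6 marks forebrain and hindbrain progenitors and helps to set the border of forebrain and midbrain.

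The 3 genes of the Pax2/5/8 subfamily moved together in part, and the 150 bases before their RefSeq start sites are printed to show how unlike they are. Coordinates are of GRCm38.p6 (the build also called mm10), sequences are RefSeq's on the gene's own strand, and capitals mark a GC box (GGGCGG) or a CCAAT box (CCAAT) on either strand.
Pax2, chr19:44756756-44756905, plus strand: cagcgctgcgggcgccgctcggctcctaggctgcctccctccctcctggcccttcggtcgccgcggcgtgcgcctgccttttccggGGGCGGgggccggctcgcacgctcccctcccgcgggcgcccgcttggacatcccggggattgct
Pax5, chr4:44710695-44710844, minus strand: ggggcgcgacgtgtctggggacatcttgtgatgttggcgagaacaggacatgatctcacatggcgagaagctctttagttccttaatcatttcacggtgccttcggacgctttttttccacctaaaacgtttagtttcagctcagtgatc
Pax8, chr2:24475600-24475749, minus strand: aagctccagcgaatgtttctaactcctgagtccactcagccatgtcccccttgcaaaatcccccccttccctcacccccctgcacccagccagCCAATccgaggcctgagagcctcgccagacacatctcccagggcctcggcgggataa
The Pax2 stretch was 78% G and C with 21 CpG pairs, that of Pax5 48.7% with 9, and that of Pax8 61.3% with 5. The median over 32851 RefSeq promoters was 54% with 4 CpG pairs. A GC box stood in the Pax2 stretch (found in 28.6% of all promoters), a CCAAT box in that of Pax8 (24.5% of all), and neither in that of Pax5. An E-box (CANNTG, in 47.7% of all) was found in that of Pax5 alone among the 3. TATAAA (7.57% of all), TAATTA (2.73%) and TAATCC (3.6%) were found in none of the 3. These matches describe the letters of the window and nothing else. The genes lie in mm10 (GENCODE vM21) at chr19:44756045-44837871 for Pax2, chr4:44524757-44710487 for Pax5, chr2:24420560-24475599 for Pax8, chr1:78101267-78197134 for Pax3, chr4:139737062-139833528 for Pax7 and chr2:105668900-105697364 for Pax6. Values are per whole gene, so exons and isoforms were not told apart.

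Values are RPKM, reads per kilobase of listed transcript and per 1000000 assigned reads. In units of 1000000 assigned reads, the E14.5 libraries were the shallowest at 0.979 to 6.13. Those of E11.5 held 1.58 to 6.43, those of E12.5 8.67 to 13.1, and those of E13.5 4.97 to 23.6. At E11.5, 8 of 15 libraries (all ventral forebrain and alar plate libraries, ventral midbrain replicate 4 and ventral hindbrain replicate 2) stood apart: they correlated better with another region of the stage than with their own group, or far less with their own group than the stage's other libraries did. The 3 alar plate libraries did so at E12.5, and 0 libraries did at E13.5 and E14.5. The labelled hindbrain was checked by 5 genes of hindbrain position (Hoxa2, Hoxb2, Hoxa3, Hoxb3, Egr2), whose summed level was 7.18 to 155 RPKM in 9 of 12 ventral hindbrain libraries but 0.137 to 2.23 in the other 3. In the 12 ventral midbrain libraries it was 0 to 0.235. In tissue pieces, fewer cells of a type and less RNA per cell cannot be told apart.

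Regions differed in 5 of the 6 genes from E12.5 on and in Pax6 from E13.5 on. With limma on log2(RPKM + 1), a difference was called at a Benjamini-Hochberg adjusted p under 0.05 and a size of at least 1 on the log2 scale. Of 60 gene and region pair tests per stage, 22 were called at E12.5, 34 at E13.5 and 35 at E14.5. The same rule called 4.34%, 5.14% and 4.79% of all tests over all genes at these stages. Pax3 was called in 21 of 30 tests over the 3 stages, Pax7 in 17, Pax5 and Pax8 in 16 each, Pax2 in 13 and Pax6 in 8. At E11.5, 0 of 60 were called (background 0.0993%). The E14.5 library names of ventral and dorsal midbrain carried 1 prefix and those of the remaining regions another. Prefixes were taken as runs, which is an assumption, so region and run cannot be told apart between these sets at that stage.

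The pairs of dorsal midbrain with ventral hindbrain and with ventral midbrain held the most calls, 17 and 15 of 18 over the 3 later stages, and the other 8 pairs held 5 to 10. Between dorsal midbrain and ventral hindbrain, 5, 6 and 6 of the 6 genes were called at E12.5, E13.5 and E14.5, where 9.92%, 12.3% and 10.3% of all genes were. The dorsal midbrain differed from the ventral forebrain in 2, 3 and 3 genes (7.19%, 6.48% and 6.64% of all genes), and from the alar plate in 0, 5 and 1 (0.59%, 5.57% and 2.38%). The ventral hindbrain, where Pax2 was highest, gave 2, 3 and 5 calls against the ventral forebrain (1.94%, 4.2% and 2.79% of all genes), 2, 2 and 3 against the ventral midbrain (2.27%, 1.89% and 0.821%) and 2, 3 and 3 against the alar plate (4.27%, 2.58% and 2.67%). The ventral midbrain gave 3, 2 and 2 against the ventral forebrain (3.58%, 2.92% and 3.37%) and 2, 2 and 4 against the alar plate (5.09%, 3.17% and 4.07%). The pair of ventral forebrain and alar plate had the fewest, 0, 3 and 2 (0.0947%, 1.83% and 3.24%). With 6 genes, 1 call is a large share, so these counts describe the members and were not tested as a set.

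**Figure D1:**
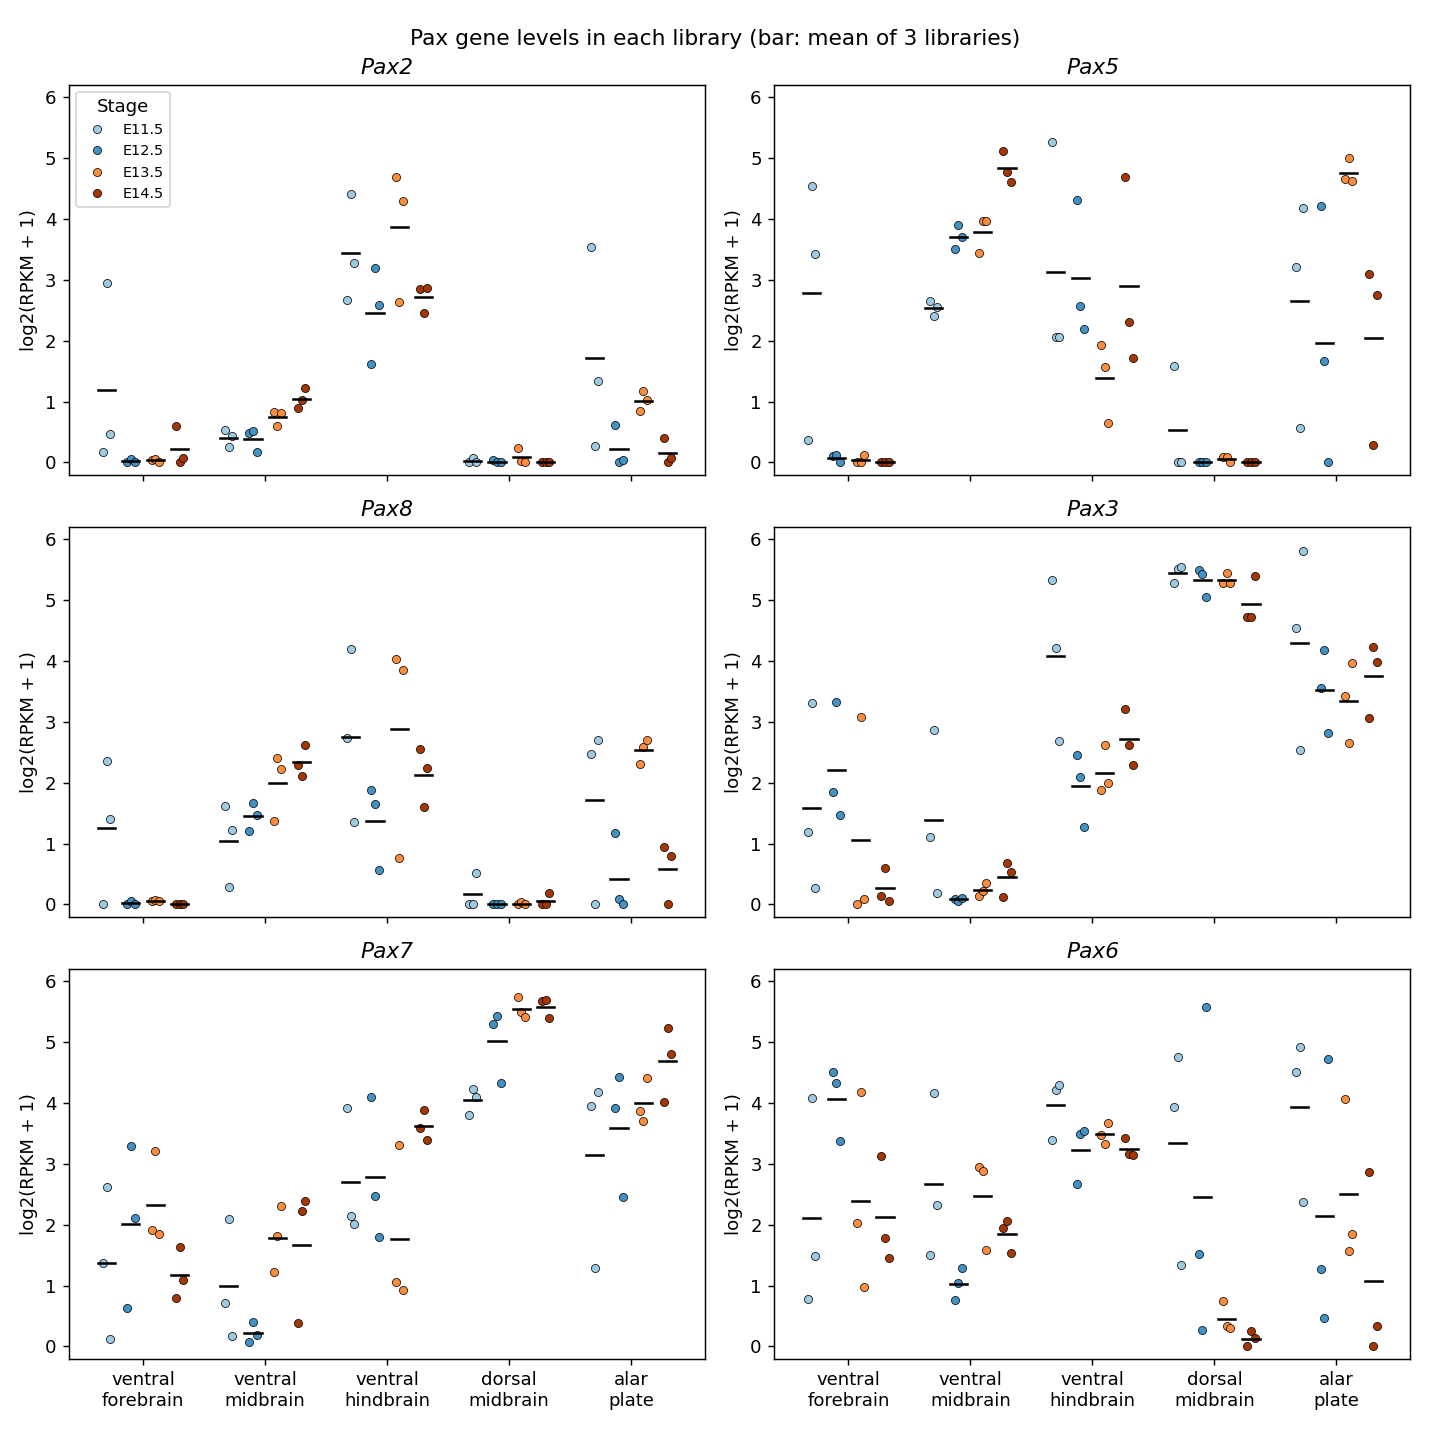
Levels of the 6 genes as log2(RPKM + 1), each point 1 library, bars the mean of 3, grouped by region on the x axis and coloured by stage. Pax3 and Pax7 are highest in the dorsal midbrain at E12.5 and later and Pax2 in the ventral hindbrain.

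Pax2, which with Pax5 and Pax8 maintains the isthmic organiser, was a hindbrain gene in these pieces from E12.5 on. In the ventral hindbrain it measured 5.34, 20.3 and 8.64 RPKM at E11.5, 2.05, 8.10 and 4.99 at E12.5, 24.9, 5.22 and 18.6 at E13.5, and 6.23, 4.46 and 6.32 at E14.5. In the ventral midbrain it measured 0.44, 0.19 and 0.35 RPKM at E11.5, 0.41, 0.43 and 0.12 RPKM at E12.5, 0.77, 0.52 and 0.75 at E13.5, and 0.86, 1.03 and 1.34 at E14.5. Every hindbrain library lay above every library of the other 4 regions at E12.5, E13.5 and E14.5. At E11.5 alar plate replicate 2 (10.6 RPKM) and ventral forebrain replicate 4 (6.69) lay above the lowest hindbrain library. No Pax2 pair was called at E11.5. Ventral midbrain minus ventral hindbrain was −2.07 ± 0.30 (SE) on the log2(RPKM + 1) scale at E12.5 (limma adjusted p = 0.00121), −3.13 ± 0.36 at E13.5 (adjusted p = 0.000122) and −1.68 ± 0.22 at E14.5 (adjusted p = 0.000827). The hindbrain was also called above each of the other 3 regions at each of these stages. All 12 of these hindbrain calls held without any single library. The difference from the ventral midbrain at E14.5 was not called with a pseudocount of 0.1 (−2.30, adjusted p = 0.220) or in 1 fit of all 60 libraries (adjusted p = 0.103).

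In the dorsal midbrain Pax2 was at 0 in 8 of 12 libraries and reached 0.175 RPKM at most. A library with 0 reads of Pax2 there could have held up to 3 reads, or 0.0640 to 0.502 RPKM, which covers counting error only. At E14.5, with 0 reads in the 3 dorsal midbrain libraries, the hindbrain level was at least 43.5-fold higher, against a floor of 3 reads over the group. The ventral midbrain was called above the dorsal midbrain at E14.5 alone (1.05 ± 0.22, adjusted p = 0.00183), and without ventral midbrain replicate 4 the difference was under the size threshold (0.96). In the fit of all 60 libraries the Pax2 adjusted p was 0.0959. At E13.5 the difference was 0.66 ± 0.36 (adjusted p = 0.139) although the libraries did not overlap, and with a pseudocount of 0.1 it was called (2.40, adjusted p = 0.00147).

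Pax5, the B cell and midbrain-hindbrain member of the subfamily, was the subfamily's most abundant gene in the ventral midbrain. Its libraries there gave 5.29, 4.28 and 4.85 RPKM at E11.5, 10.3, 14.0 and 12.1 at E12.5, 9.84, 14.6 and 14.7 at E13.5, and 33.7, 26.4 and 23.4 at E14.5. These are narrow groups: E11.5 lay below E12.5 and E13.5, which overlapped, and E14.5 lay above all of them. RPKM of Pax5 rests on a listed transcript of 1308 bases, against 2669 for Pax8 and 3127 for Pax2, so a level set against another gene's depends on those lengths.

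From E11.5 to E12.5 Pax5 rose in the ventral midbrain by 1.17 ± 0.17 log2 units (limma adjusted p = 0.000159), and from E12.5 to E14.5 by a further 1.13 ± 0.17 (adjusted p = 0.000523). The later rise was the 1 call among 27 gene and region tests of that interval, where 1.55% of all tests and 4.23% of those in the ventral midbrain were called. The other regions had 0 calls of the 6 genes, where 1.35% of all genes were called in the ventral forebrain, 1.27% in the ventral hindbrain, 0.883% in the dorsal midbrain (3 of the 6 genes tested) and 0.00726% in the alar plate. Without ventral midbrain E14.5 replicate 2 the later rise measured 0.99, under the size threshold, at an adjusted p of 0.00262. Replicates 3 and 4 of that group differed by little more than counting error, so the SE of the rise may be too small. The ventral midbrain libraries of each stage carried a name prefix, taken as the run, of their own stage, so stage and run cannot be told apart there. Set against the mean change of the other 4 regions, the rise was 1.16 ± 0.87 (adjusted p = 0.695), so a difference between regions in the change was not shown. In the same interval Pax8 in the ventral midbrain went from 1.30, 2.16 and 1.78 RPKM to 3.91, 3.31 and 5.17, which did not overlap but missed the test (0.90 ± 0.34, adjusted p = 0.0593). Pax2 in the ventral midbrain differed by 0.66 ± 0.17 (adjusted p = 0.0122), under the size threshold. It was called with a pseudocount of 0.1 (1.57, adjusted p = 0.0216) and with voom on recovered reads (1.92, adjusted p = 0.0105).

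In the dorsal midbrain Pax5 was at 0 in 9 of 12 libraries. The exceptions were 1.99 RPKM in 1 E11.5 library and 0.07 and 0.06 in 2 E13.5 libraries. The ventral midbrain exceeded the dorsal by 3.70 ± 0.78 at E12.5 (adjusted p = 0.00532), 3.73 ± 0.25 at E13.5 (adjusted p = 1.34e-07) and 4.83 ± 0.69 at E14.5 (adjusted p = 0.000160). With 0 reads in the dorsal group at E12.5 and E14.5, the ventral level was at least 182-fold and at least 94.9-fold higher, against 3 reads over the group. The ventral forebrain was also at or near 0 from E12.5 on, with 0.09 RPKM at most, after 0.30, 22.2 and 9.79 at E11.5. That drop from E11.5 to E12.5 was called (−2.70 ± 0.77, adjusted p = 0.0130; 17.9% of all genes were called in that region), and all 3 E11.5 libraries of the ventral forebrain are among those that stood apart.

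Pax5 in the alar plate varied between stages and between libraries of a stage. Its libraries gave 8.29, 0.48 and 17.1 RPKM at E11.5, 17.6, 2.18 and 0 at E12.5, 24.3, 31.1 and 23.5 at E13.5, and 7.59, 0.21 and 5.74 at E14.5. At E13.5 it lay above the ventral midbrain in every library, by 0.97 ± 0.25 log2 units (adjusted p = 0.0197, under the size threshold). At E14.5 the order was the opposite, with the ventral midbrain called higher by 2.79 ± 0.69 (adjusted p = 0.0170). That call was lost without alar plate replicate 3 (1.91, adjusted p = 0.0759), ventral midbrain replicate 2 (2.65, adjusted p = 0.0541) or ventral midbrain replicate 3 (2.82, adjusted p = 0.0515). The E12.5 and E14.5 alar plate groups span from 0 to 17.6 and from 0.21 to 7.59 RPKM.

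Pax8, the thyroid, kidney and ear member of the subfamily, was lower than Pax5 in the ventral midbrain. There it measured 2.08, 0.22 and 1.34 RPKM at E11.5 and 1.58, 4.31 and 3.67 at E13.5. In the dorsal midbrain it was at 0 in 9 of 12 libraries, with 0.434 RPKM at most. From E12.5 on, Pax8 was called higher in the ventral than in the dorsal midbrain, by 1.44 ± 0.33 (E12.5, adjusted p = 0.00833), 1.99 ± 0.61 (E13.5, adjusted p = 0.0146) and 2.28 ± 0.28 (E14.5, adjusted p = 5.07e-05). The E13.5 call was lost without ventral midbrain replicate 5 (1.78, adjusted p = 0.0532) and with voom on recovered reads (adjusted p = 0.135), and the E12.5 call in the fit of all 60 libraries (adjusted p = 0.0719). In the alar plate Pax8, like Pax5, had its highest group mean at E13.5. It gave 4.54, 0 and 5.50 RPKM at E11.5, 1.26, 0.06 and 0 at E12.5, 3.96, 5.01 and 5.53 at E13.5, and 0.93, 0 and 0.73 at E14.5. The Pax8 values of E11.5, from libraries that stood apart, thus overlapped those of E13.5. The alar plate library lowest in Pax5 at E14.5, replicate 3, was also the lowest in Pax8. Over the 20 group means, Pearson's r of log2(RPKM + 1) was 0.80 for Pax5 and Pax8, 0.81 for Pax2 and Pax8 and 0.41 for Pax2 and Pax5. Groups share libraries and depth between genes, so these values are descriptions.

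Within the ventral hindbrain the 3 subfamily genes were not high in the same libraries. The E11.5 libraries gave 37.5, 3.17 and 3.16 RPKM of Pax5, beside 5.34, 20.3 and 8.64 of Pax2 and 5.63, 17.3 and 1.55 of Pax8. The E12.5 libraries gave 18.9, 4.96 and 3.54 of Pax5, and those of E14.5 gave 24.8, 3.95 and 2.28. At each of these stages 1 library held most of the Pax5: replicate 2 at E11.5, replicate 1 at E12.5 and replicate 2 at E14.5. The E13.5 libraries, with 2.79, 1.97 and 0.57, had none of that kind. Pax5 was not called between ventral midbrain and ventral hindbrain at E12.5 (0.68 ± 0.78, adjusted p = 0.865) or E14.5 (1.93 ± 0.69, adjusted p = 0.319), and was called at E13.5 (2.41 ± 0.25, adjusted p = 4.64e-05, but 0.239 in the fit of all 60 libraries). Without hindbrain replicate 2 the E14.5 difference was called too (2.82, adjusted p = 0.0280).

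The same libraries stood apart in position genes. The 3 hindbrain libraries highest in Pax5 at E11.5, E12.5 and E14.5 had the lowest summed level of the 5 hindbrain position genes, at 2.23, 0.137 and 0.914 RPKM against 7.18 to 155 in the other 9. They also had the highest summed level of 18 isthmic organiser genes of their stage, 329, 151 and 200 RPKM against 100.3 at most in the other 9. Pax2 went the other way at E11.5, E12.5 and E13.5, where its highest library was the library highest in position genes. At E14.5 that library was again the highest, but with 6.32 RPKM against 6.23 in the library lowest in position genes. Pax3 was highest in the library lowest in position genes at 4 of 4 stages, and Pax7 at 3 of 4. At E11.5 and E13.5 Pax8 was highest in the library highest in position genes, and at E12.5 and E14.5 in the library lowest in them. In the 3 libraries with the highest position sums (155, 90.6 and 83.2 RPKM), Pax8 had its 3 highest hindbrain levels, up to 17.3 RPKM, against 0.474 to 5.63 in the other 9. The part of the position of the piece in these levels was not tested. Slc6a5, the glycine transporter of inhibitory neurons, was 8.57, 1.16 and 5.61 RPKM at E13.5, with the same library lowest as for Pax2 and Pax8.

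**Figure D2:**
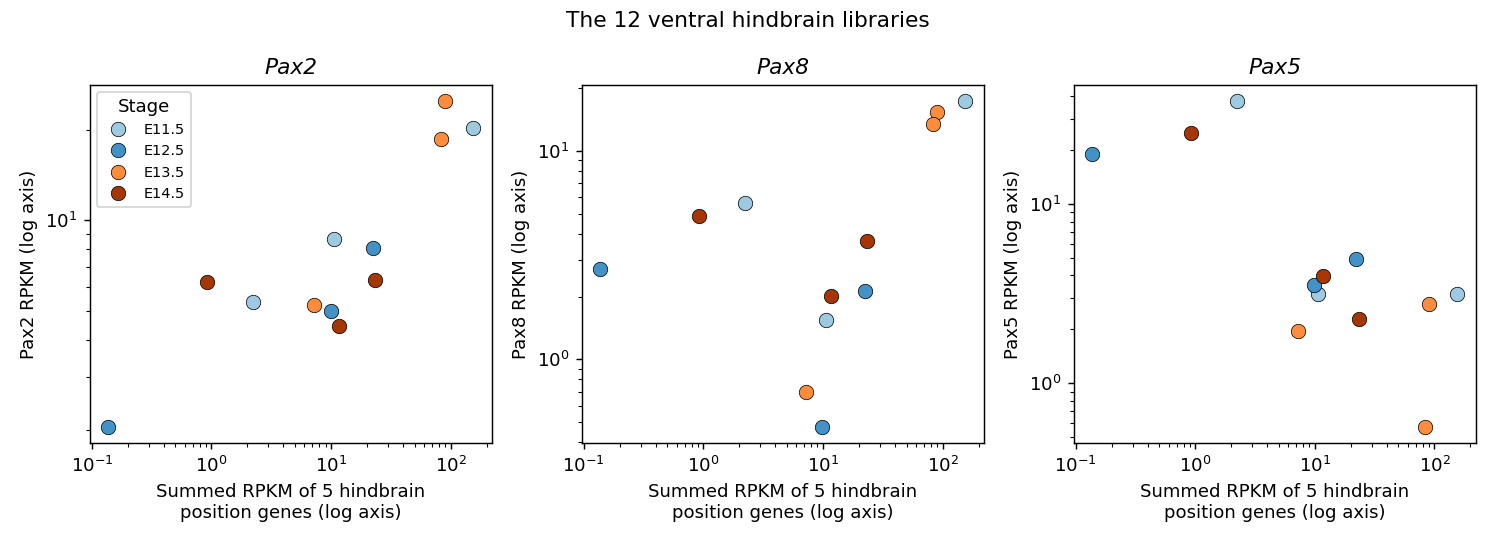
The 12 ventral hindbrain libraries, with the summed RPKM of 5 hindbrain position genes on the x axis and the RPKM of Pax2, Pax8 and Pax5 on the y axis, all axes log. The 3 libraries at 0.137 to 2.23 RPKM on the x axis are the 3 highest in Pax5, and the 3 at 83.2 to 155 are the 3 highest in Pax2 and Pax8.

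Pax3 and Pax7, the dorsal pair, had their highest group means in the dorsal midbrain from E12.5 on. Pax3 measured 38.0, 44.3 and 45.7 RPKM there at E11.5, 44.0, 41.8 and 32.3 at E12.5, 37.7, 42.5 and 37.8 at E13.5, and 25.3, 25.3 and 40.9 at E14.5. In the ventral midbrain it measured 0.06, 0.04 and 0.07 RPKM at E12.5, 0.10, 0.16 and 0.27 at E13.5, and 0.08, 0.61 and 0.45 at E14.5. The groups did not come near each other from E12.5 on. Ventral minus dorsal midbrain was −5.24 ± 0.44 at E12.5 (limma adjusted p = 5.66e-06), −5.10 ± 0.61 at E13.5 (adjusted p = 1.69e-05) and −4.49 ± 0.31 at E14.5 (adjusted p = 3.59e-07), and each call held without any single library. At E11.5 the ventral midbrain gave 1.16, 6.30 and 0.14 RPKM, where 6.30 belongs to replicate 4, a library that stood apart and held 0.452 RPKM of the midbrain gene En1 against 27.0 and 14.97 in the other 2.

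Pax7 in the dorsal midbrain measured 13.0, 17.6 and 16.1 RPKM at E11.5, 38.2, 42.2 and 19.1 at E12.5, 52.2, 43.8 and 41.4 at E13.5, and 49.8, 50.4 and 41.0 at E14.5. The ventral midbrain held 0.05, 0.32 and 0.13 at E12.5, 1.33, 2.52 and 3.92 at E13.5, and 0.31, 3.67 and 4.25 at E14.5. Here too no ventral library reached a dorsal one. The difference, ventral minus dorsal, was −4.80 ± 0.69 at E12.5 (adjusted p = 0.000443), −3.76 ± 0.53 at E13.5 (adjusted p = 6.62e-05) and −3.91 ± 0.43 at E14.5 (adjusted p = 2.26e-05). These calls held without any single library. In the ventral midbrain Pax7 thus reached a few RPKM at the later stages while Pax3 stayed at 0.61 RPKM or less from E12.5 on. The difference of Pax7 between E12.5 and E14.5 there was 1.45 ± 0.55 (adjusted p = 0.0627).

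The alar plate had the second highest group mean of both genes from E12.5 on. Pax3 gave 10.8, 17.0 and 6.02 RPKM there at E12.5, 9.68, 5.31 and 14.7 at E13.5, and 7.38, 17.7 and 14.8 at E14.5. Every one of these libraries lay under every dorsal midbrain library of its stage. The difference between dorsal midbrain and alar plate was 1.81 ± 0.44 at E12.5 (adjusted p = 0.0653, not called), 1.98 ± 0.61 at E13.5 (adjusted p = 0.0187) and 1.18 ± 0.31 at E14.5 (adjusted p = 0.0337). At E13.5 the call was lost without alar plate replicate 5 (1.64, adjusted p = 0.0783) or dorsal midbrain replicate 5 (1.93, adjusted p = 0.0560). At E14.5 it was lost without any of 4 libraries, with adjusted p from 0.0537 to 0.181. With a pseudocount of 0.1 neither was called (adjusted p = 0.155 and 0.178). The E12.5 difference was called without dorsal midbrain replicate 3 (adjusted p = 0.0369).

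Pax7 in the alar plate gave 14.0, 20.4 and 4.46 RPKM at E12.5, 13.6, 12.03 and 20.3 at E13.5, and 15.2, 36.4 and 26.9 at E14.5. These overlapped the dorsal midbrain at E12.5 and lay under it at E13.5 and E14.5. Dorsal midbrain minus alar plate was 1.42 ± 0.69 at E12.5 (limma adjusted p = 0.248), 1.55 ± 0.53 at E13.5 (adjusted p = 0.0332) and 0.90 ± 0.43 at E14.5 (adjusted p = 0.194). Only the E13.5 difference was called, and it was lost without any of 5 libraries (dorsal midbrain replicates 4, 5 and 6 and alar plate replicates 4 and 5), with adjusted p from 0.0629 to 0.0973. It was also lost with a pseudocount of 0.1 (adjusted p = 0.0780), with no filter on low values (adjusted p = 0.0586) and in the fit of all 60 libraries (adjusted p = 0.114).

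The ratio of the pair is given by library as a description, since its test could not pass 0.05 with 3 libraries a group. In the dorsal midbrain the ratio of Pax7 to Pax3 RPKM within a library was 0.341, 0.398 and 0.352 at E11.5, 0.869, 1.01 and 0.591 at E12.5, 1.38, 1.03 and 1.10 at E13.5, and 1.97, 1.99 and 1.003 at E14.5. In the alar plate it was 0.647, 0.302 and 0.310 at E11.5, 1.30, 1.20 and 0.742 at E12.5, 1.41, 2.27 and 1.39 at E13.5, and 2.06, 2.06 and 1.82 at E14.5. All E14.5 libraries lay above all E11.5 libraries in both regions, and the same held in the remaining regions. In the ventral hindbrain the ratio was 0.195 to 0.560 at E11.5 and 1.33 to 2.66 at E14.5. In the ventral midbrain it was 0.515 to 0.907 and 3.63 to 9.37. In the ventral forebrain it was 0.453 to 1.26 and 4.08 to 26.3. These last 2 had 3 Pax3 reads or fewer per library at E14.5. The E11.5 alar plate libraries all stood apart. Run prefixes differed between these stages, so stage and run cannot be told apart. The mean log2 ratio differed by 2.12 in the dorsal midbrain and 2.33 in the alar plate, with a two-sided exact permutation p of 0.1 in each, the smallest that 3 against 3 allows (0.1 after adjustment over these 2 comparisons). By gene, Pax7 in the dorsal midbrain was higher at E12.5 than at E11.5 by 0.98 ± 0.24 (limma adjusted p = 0.00603), just under the size threshold, and past it without dorsal midbrain E12.5 replicate 3 (1.32, adjusted p = 0.000108). Pax3 there differed by −0.12 ± 0.17 (adjusted p = 0.586) over the same interval.

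**Figure D3:**
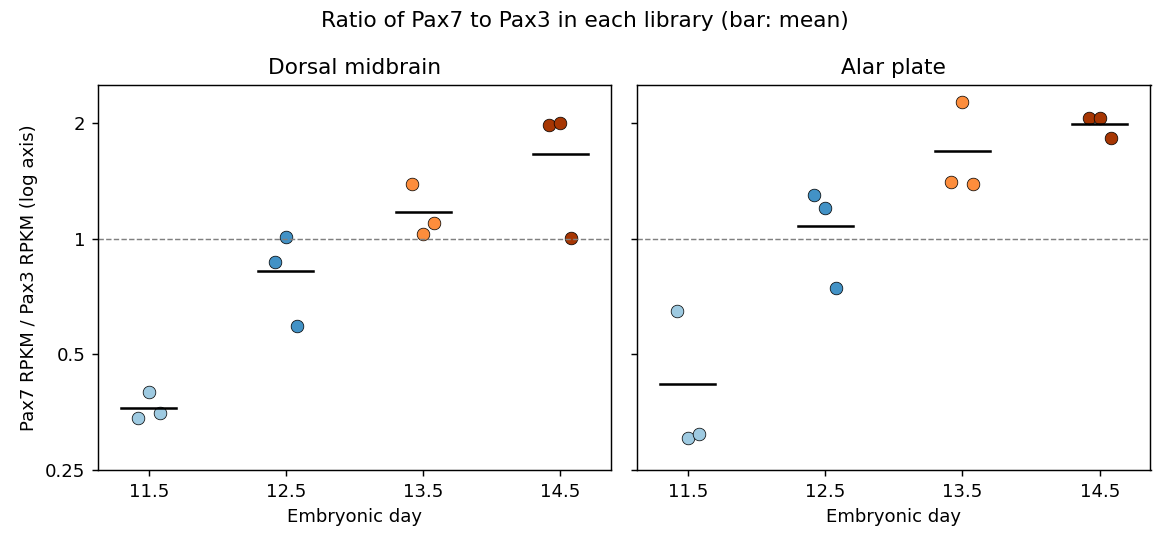
Ratio of Pax7 RPKM to Pax3 RPKM in each library of the dorsal midbrain and the alar plate by embryonic day, on a log axis, with the mean of 3 libraries as a bar and equality dashed. The ratio is 0.647 or less in all 6 E11.5 libraries and at 1.003 or more in all 6 E14.5 libraries.

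In the ventral hindbrain both genes were present at lower levels. Pax3 gave 4.48, 3.27 and 1.42 RPKM at E12.5, 2.69, 5.11 and 2.99 at E13.5, and 8.30, 5.16 and 3.90 at E14.5. At E11.5 it gave 39.2, 17.6 and 5.45, and the fall to E12.5 was called (−2.14 ± 0.55, adjusted p = 0.00716). It was 1 of 6 calls among 27 tests of that interval, in which 11.3% of all tests and 11.3% of those in the ventral hindbrain were called. The ventral midbrain had 3 of the 6 (9.26% of all genes called there): the Pax5 rise and falls of Pax3 (−1.31 ± 0.49, adjusted p = 0.0452) and Pax6 (−1.63 ± 0.55, adjusted p = 0.0286). Those of Pax3 and Pax6 were lost without any of 4 and any of 3 single libraries. Without ventral midbrain E11.5 replicate 4 the Pax6 difference was −0.88 (adjusted p = 0.0800); that library held 16.8 RPKM of Pax6 against 1.83 and 4.01. The ventral forebrain had the falls of Pax5 and Pax8 (Pax8 −1.23 ± 0.44, adjusted p = 0.0378, lost without any of 4 libraries). In the dorsal midbrain (7.77%) and the alar plate (9.99%) 0 were called. Pax3 was above the ventral midbrain at E14.5 (ventral midbrain minus ventral hindbrain −2.26 ± 0.31, adjusted p = 0.00148, but 0.0977 with voom and 0.106 in the fit of all 60 libraries). At E12.5 it was too (−1.86 ± 0.44, adjusted p = 0.0316), a call lost without any of 5 libraries, with adjusted p from 0.0986 to 0.126. Pax7 in the ventral hindbrain ranged from 0.898 to 16.1 RPKM over 12 libraries.

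The ventral forebrain held little of either gene at the last stage. Pax3 gave 2.59, 9.03 and 1.75 RPKM there at E12.5, 0, 7.49 and 0.06 at E13.5, and 0.10, 0.51 and 0.04 at E14.5. All E14.5 libraries lay under all E12.5 libraries. Within the region the difference from E12.5 to E14.5 was −1.94 ± 0.90 (adjusted p = 0.220). Against the mean change of the other 4 regions it was −2.19 ± 0.45 (adjusted p = 0.00401), the 1 call among 30 such tests, where 0.575% of all tests and 2.52% of those for the ventral forebrain were called. For the other regions the share of all genes called was 0.253% (ventral midbrain), 0.0211% (ventral hindbrain), 0.0633% (dorsal midbrain) and 0.0141% (alar plate), with 0 of the 6 genes. With voom on the recovered reads the adjusted p was 0.0590. Without ventral forebrain E12.5 replicate 1 there were 2 calls of 30 in place of 1, with the share of all genes called then not given here.

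Pax6, the eye and forebrain gene, had the fewest calls of the 6. In the ventral hindbrain it gave 9.49, 17.5 and 18.5 RPKM at E11.5, 5.32, 10.2 and 10.6 at E12.5, 10.1, 9.0005 and 11.7 at E13.5, and 9.69, 7.91 and 7.84 at E14.5. In the dorsal midbrain it gave 14.3, 25.9 and 1.53 at E11.5, 1.88, 0.20 and 46.7 at E12.5, 0.68, 0.26 and 0.23 at E13.5, and 0, 0.19 and 0.10 at E14.5. In the ventral midbrain it gave 6.70, 6.35 and 1.99 at E13.5 and 2.85, 3.19 and 1.90 at E14.5. At E13.5 and E14.5 the dorsal midbrain had the lowest group mean of Pax6, and the hindbrain lay above it in every library. The alar plate gave 15.8, 1.97 and 2.61 RPKM at E13.5 and 6.30, 0 and 0.26 at E14.5. Dorsal midbrain minus alar plate was −2.04 ± 0.72 at E13.5 (limma adjusted p = 0.0368), a call lost without any of 4 libraries. At E14.5 these 2 regions overlapped and the difference was not called (−0.94 ± 0.58, adjusted p = 0.317).

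Ventral hindbrain minus dorsal midbrain was 3.03 ± 0.72 at E13.5 (limma adjusted p = 0.00269) and 3.11 ± 0.58 at E14.5 (adjusted p = 0.00108), and both held without any single library. Between ventral and dorsal midbrain the difference was 2.01 ± 0.72 at E13.5 (adjusted p = 0.0310) and 1.72 ± 0.58 at E14.5 (adjusted p = 0.0282). The E13.5 call was lost without any of 4 libraries (adjusted p from 0.0765 to 0.0945) and that of E14.5 without any of 5 (adjusted p from 0.0534 to 0.0773). Both were also lost in a fit of all 60 libraries (adjusted p = 0.118 and 0.170). Pax6 in the ventral forebrain gave 21.8, 19.1 and 9.39 RPKM at E12.5, 3.07, 17.1 and 0.96 at E13.5, and 7.74, 2.43 and 1.73 at E14.5. The antisense gene Pax6os1 overlaps the start of Pax6, and without the strand of the libraries its reads and those of Pax6 cannot be told apart; its listed level was 0.40 RPKM at most.

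At E12.5 no Pax6 pair was called, and 2 libraries weighed on that. Alar plate replicate 3 held 25.3 RPKM of Pax6 against 1.41 and 0.38, and dorsal midbrain replicate 3 held 46.7 against 1.88 and 0.20. Both also had a higher summed level of 11 forebrain genes than the other libraries of their group, 674 against 320 and 372 RPKM and 604 against 318 and 319. Among these genes Tbr1, of cortical neurons, was 24.5 RPKM in alar plate replicate 3 against 0.056 and 0.103, and 0.066 in dorsal midbrain replicate 3. Meis2, high in tectum, was 5.04 RPKM in dorsal midbrain replicate 3 against 62.1 and 58.6. Their part in the Pax6 levels was not tested. Without both libraries, an alternative chosen after seeing the values, 33 of 60 tests were called at E12.5 in place of 22. Ventral minus dorsal midbrain for Pax6 went from −1.43 ± 1.18 (adjusted p = 0.413) to 0.13 (adjusted p = 0.816), and ventral midbrain minus ventral hindbrain from an adjusted p of 0.472 to 0.00411 at the same size of −2.20.

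Seen along the dorsoventral axis of the midbrain, the genes split by subfamily. At E14.5 all 6 were called between ventral and dorsal midbrain, 5 at E13.5 and 4 at E12.5, against 1618 of 14013 genes tested at E14.5 and 10.5% and 8.45% of all genes at E13.5 and E12.5. Pax2, Pax5, Pax8 and Pax6 were called higher ventrally where they were called, and Pax3 and Pax7 higher dorsally.

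**Figure D4:**
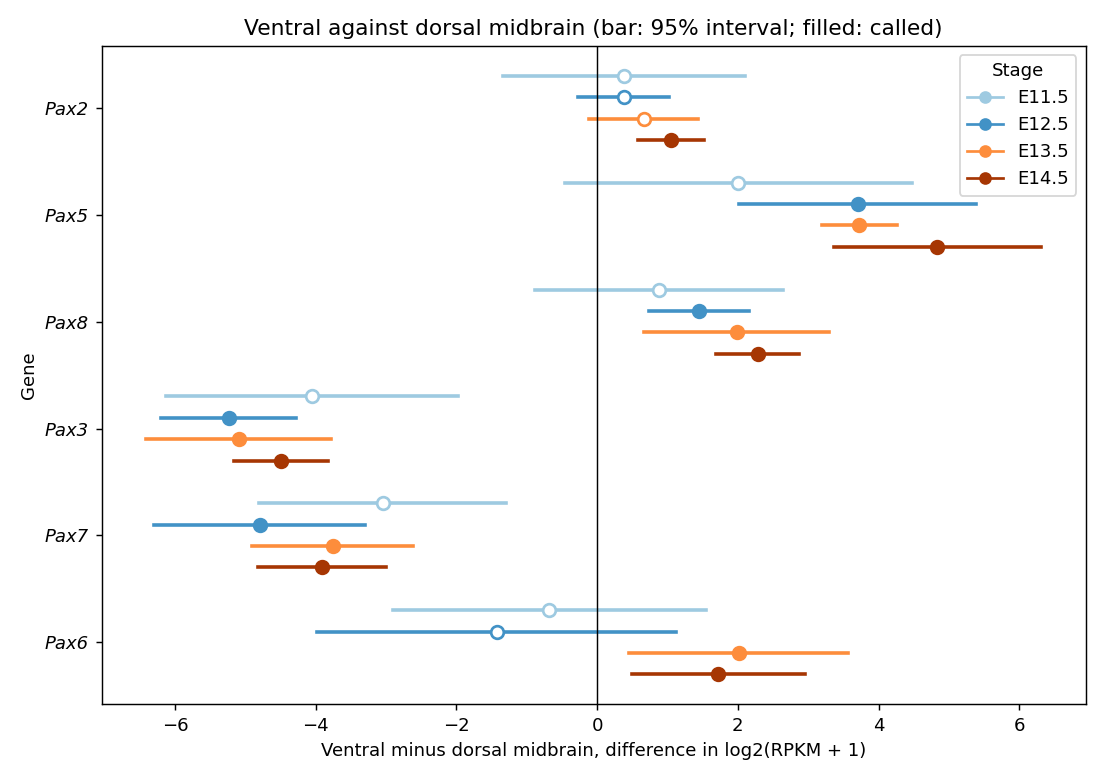
Ventral minus dorsal midbrain difference in log2(RPKM + 1) for the 6 genes at 4 stages, with 95% intervals as bars and called differences as filled points. Pax3 lies at −5.24 to −4.49 and Pax5 at 3.70 to 4.83 from E12.5 on, while all 6 points of E11.5 are open.

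Genes that act with these factors were read in the same contrast at E13.5, where the median of all genes was −0.01 and 10.5% of all genes were called. Of 17 tested isthmic organiser genes, 9 were called higher and 2 lower in the ventral midbrain, with a median of 1.04. The higher genes included the homeodomain factor En1 (5.05 ± 0.33, limma adjusted p = 1.30e-07), the LIM-homeodomain factor Lmx1b (3.63 ± 0.26, adjusted p = 2.63e-07), the Fgf-responsive factor Etv5 (1.96 ± 0.21, adjusted p = 8.59e-06) and the signal Fgf8 (1.63 ± 0.21, adjusted p = 2.59e-05). The 2 lower genes, named after their values were seen, were Otx2 (−2.36 ± 0.31), which marks forebrain and midbrain, and the signal Wnt1 (−1.03 ± 0.26). In these libraries 6 genes of the dopaminergic lineage summed to 281 to 354 RPKM in the ventral midbrain against 1.05 to 1.85 in the dorsal. The part of that lineage in the differences of the isthmic list was not tested. Of 13 tested dorsal neural tube genes, 6 were called lower and 0 higher, with a median of −0.79. The 4 with the smallest adjusted p were the Wnt enhancer Rspo1 (−3.26 ± 0.40, adjusted p = 1.92e-05), the roof plate signal Gdf7 (−1.46 ± 0.20, adjusted p = 4.93e-05), the zinc finger factor Zic4 (−4.04 ± 0.63, adjusted p = 0.000138) and the homeodomain factor Msx2 (0.77 ± 0.14, adjusted p = 0.000368, under the size threshold).

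The genes of the Eya, Dach and sine oculis families, which form a network with Pax genes in eye, ear and muscle, were read in the same contrast. Of 9 tested, 1 was called (10.5% of all genes were), Eya1, higher in the ventral midbrain (1.92 ± 0.20, adjusted p = 5.24e-06), and the median was −0.19. Between ventral midbrain and ventral hindbrain at E13.5, where 2 of the 6 Pax genes were called (1.89% of all genes), 4 of 4 tested hindbrain position genes were called lower in the midbrain. Hoxa2 differed by −3.89 ± 0.40 (adjusted p = 4.21e-05) and Hoxb2 by −3.58 ± 0.58 (adjusted p = 0.00183). The median of the 4 was −3.42, against 0.01 over all genes. Of 9 tested inhibitory neuron genes, 4 were called lower in the midbrain and 0 higher.

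Markers of other tissues in which Pax genes act were read as whole lists. The summed level of 7 muscle genes was 8.17 RPKM at most, with Myod1 and Myog at 0 in 50 and 51 of 60 libraries, and that of 6 neural crest and Schwann cell genes was 4.33 to 39.3. The 7 ear genes summed to 19.5 to 110 RPKM, of which Otx1, Gata2 and Sox9 were above 0 in every library, while Oc90, Otol1 and Dlx5 were at 0 in 49, 48 and 35. The 8 eye genes summed to 0.455 to 30.7 RPKM, with the lens gene Cryaa at 0 in 59 libraries and the pigment gene Tyr in 55.

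Meningeal and mesenchymal genes were higher in the dorsal than in the ventral midbrain at E12.5. The same held at E13.5 and E14.5 apart from a single library at each. The 10 genes summed to 70.7 to 132 RPKM in the dorsal midbrain at E12.5 against 7.19 to 8.61 in the ventral. At E13.5 they summed to 68.9 to 91.0 in the dorsal against 8.15, 8.73 and 353 in the ventral, and at E14.5 to 7.97, 172 and 84.9 against 9.06 to 12.2. Ventral midbrain E13.5 replicate 4, at 353 RPKM, had 0.10 RPKM of Pax3 and 1.33 of Pax7, and dorsal midbrain E14.5 replicate 2, at 7.97, had 25.3 of Pax3 and 49.8 of Pax7. The part of these genes in the Pax3 and Pax7 differences was not tested. The sum also reached 1328 RPKM in a ventral forebrain library and 613 in an alar plate library of E11.5. The other Pax genes listed were near 0, with Pax1 at 1.4025 RPKM, Pax9 at 0.30 and Pax4 at 0.19 at most.

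The genes most like each member over the 20 group means differed between subfamilies. Pax2 went with the position genes Hoxa2 (r = 0.97) and Hoxb2 (0.94) and with Slc6a5 (0.94). Pax5 went with En1 (0.86), the adaptor gene Nck2 (0.84) and the lipase gene Lipg (0.80), and Pax8 with the Fgf antagonist Spry2 (0.83), Nck2 (0.83) and the aquaporin gene Aqp6 (0.82). Pax3 went with Boc (0.96), a coreceptor of hedgehog signals, their effector Gli2 (0.95) and Fgf15 (0.94), and Pax7 with Plekhd1 (0.93), the factor Tfap2b (0.90) and Lgals7 (0.88). Pax6 had the loosest matches, the myelin gene Pmp22 (0.78), the nuclear receptor Nr2f2 (0.77) and the hindbrain factor Gbx2 (0.76). Pax3 and Pax7 had r = 0.88 with each other, and the same library was highest in both in 13 of 20 groups. These coefficients describe 20 means that share libraries and depth.

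At E11.5, 0 of 60 tests were called. Over all genes 0% were called in 6 region pairs, and in the 4 pairs that hold the dorsal midbrain 0.601% (ventral midbrain), 0.145% (ventral hindbrain), 0.138% (ventral forebrain) and 0.109% (alar plate). Of the 60 limma tests, 16 had an unadjusted p under 0.05, and voom on the recovered reads called 0. Leaving out 1 library at a time gave 0 to 4 calls, with 4 without alar plate replicate 4, 3 without ventral hindbrain replicate 2, and 1 each without ventral forebrain replicate 6, alar plate replicate 2 or ventral midbrain replicate 4. The shares of all genes called in these fits are not given here, so these counts are not read as results about the 6 genes. Alar plate replicate 4 had 13868 RPKM summed over 7 blood and vessel genes against 1803 and 1911 in its group, and 331 over 8 neuron genes against 1916 and 1743. Ventral forebrain replicate 6 had 18443 over the blood and vessel genes against 3791 and 1890. Their part in the E11.5 results was not tested. The ventral minus dorsal midbrain difference was −4.05 ± 0.96 for Pax3 (limma adjusted p = 0.0550) and −3.05 ± 0.81 for Pax7 (adjusted p = 0.0628). Ventral hindbrain minus dorsal midbrain was 3.42 ± 0.79 for Pax2 (adjusted p = 0.0763) and 2.58 ± 0.81 for Pax8 (adjusted p = 0.0941). Without the 8 libraries that stood apart, which leaves no library of ventral forebrain or alar plate, 11 of 18 tests were called. Those 8 were picked by their correlations with their own and other groups, which bears on the spread of all genes. The share of all genes called in that fit is not given here, so the count is not read as a result about the 6 genes. The same 4 differences were then −4.79 (adjusted p = 0.000481), −3.60 (adjusted p = 0.000107), 3.82 (adjusted p = 0.000370) and 2.60 (adjusted p = 0.0203). At E11.5 the dorsal midbrain libraries carried another run prefix than those of the remaining regions, so region and run cannot be told apart in these 4 differences.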

How the data were processed

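Per the labels, RNeasy kits gave total RNA of the brain pieces, and libraries were of the Illumina TruSeq type. Reads were mapped with Bowtie to mm10, per the submitters' processing notes. For the Bowtie version, read counter, annotation, filters and strand, the sources used here give nothing. RPKM is the unit the authors deposited, per listed transcript length and per 1000000 assigned reads; this was read from the values, since value times length sums to 1000000 in each library. Those products are whole multiples of 1 step per library, and whole reads were recovered from them (100.0% of values within 0.01 of a whole read). Genes with identical or overlapping sequence were kept as listed.

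Samples were grouped by the labelled region and stage, 3 libraries a group. The 5 prefixes of library names were taken as runs. The closest replicates were 3 and 4 of ventral midbrain E14.5, with a chi-square of 1.11 per feature over 12490 features where counting alone gives about 1. Next were replicates 3 and 4 of ventral hindbrain (1.46) and of ventral forebrain (1.72), also at E14.5. All libraries were kept, so SE of contrasts with these E14.5 groups may be too small. RPKM were tested as log2(RPKM + 1) with limma 3.58.1 (mean-variance trend) in R 4.3.3, over genes whose mean reached 1 RPKM in at least 1 group fitted, with Benjamini-Hochberg adjustment over all genes of a contrast. Separate fits were made for each stage (15 libraries, 10 region pairs), for each region (12 libraries), and for the difference between regions in the E12.5 to E14.5 change (30 libraries). A pseudocount of 1 understates fold changes of genes with low values, and SE are from these fits. The fitting step was tested on simulated data.

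The members and gene lists were chosen with earlier results of these data known, and single markers named for individual libraries (En1, Slc6a5, Tbr1, Meis2) after their values were seen. Some genes of the lists are not reported here, and the sums and counts leave them out. From each list, the genes named were up to 4 with the smallest adjusted p. The genes most like a member were the 3 with the highest Pearson correlation over group means, among genes with a group mean of at least 5 RPKM. Promoters of 5 members matched the RefSeq table. Alternatives were a pseudocount of 0.1, no filter on low values, voom on the recovered reads, TMM scaling, the replicate number as a block, 1 fit of all 60 libraries, pairs within 1 run, and leaving out libraries.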

Additional observations from a re-analysis of the deposited data

Results flagged for a closer look

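The change of Pax3 from E12.5 to E14.5 was called different between regions in a direct test, though not with voom on the recovered reads. The ventral forebrain change minus the mean change of the other 4 regions was −2.19 on the log2(RPKM + 1) scale (limma adjusted p = 0.00401), with 2.59, 9.03 and 1.75 RPKM at E12.5 and 0.10, 0.51 and 0.04 at E14.5. It was 1 of 30 such tests of the 6 genes. Its SE of 0.45 pools the spread of all 5 regions. Within the ventral forebrain alone the change was −1.94 ± 0.90 (limma adjusted p = 0.220). The E14.5 libraries there held 1, 2 and 1 reads of Pax3. The 11 forebrain genes summed to 272 to 766 RPKM in the ventral forebrain at E12.5 and to 83.1 to 101 at E14.5, and their part in the Pax3 difference was not tested.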

How the results depend on the processing

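Of 99 called differences of the 6 genes, 54 kept their call in every alternative run and 45 lost it in at least 1, of which 29 in leaving out a single library; 0 of the 99 reversed. By alternative, the fit of all 60 libraries ended 26 calls, voom 16, no filter on low values 14, the pseudocount of 0.1 8, TMM scaling 1, pairs within 1 run 2 and leaving out the libraries that stood apart 1. The share of tests called at E11.5 was 0% and moved to 61.1% without the libraries that stood apart, 21.7% in the fit of all 60 libraries, 5% without ventral midbrain replicate 4, alar plate replicate 2 and ventral hindbrain replicate 2 together (chosen after seeing the data), and 0% to 6.67% without 1 library at a time. At E12.5 it was 36.7%, and 55.6% (20 of 36) without the libraries that stood apart, which leaves no alar plate pair. With all libraries 18 of the same 36 tests were called (50%). For the E12.5 to E14.5 change it was 3.33% of 30 gene and region combinations, and 10% with the pseudocount of 0.1, 6.67% with voom and 8.33% without the libraries that stood apart. For the difference between regions in that change it was 3.33%, 0% with voom, and 3.33% to 6.67% without 1 library at a time. The libraries that stood apart were picked by their correlations with other libraries, so the 61.1% at E11.5 is not read as a result about the 6 genes. Nor are the other shifts, since the share of all genes called in each alternative is not given here. Other than by the change of pairs at E12.5, the cause of the shifts was not tested.

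Whether replicate numbers pair the libraries was not settled, and the main fits used no pairing. At no stage did every same-numbered pair of libraries deviate together (correlations from −0.676 to 0.399). Yet of the 10 same-numbered pairs per replicate, 7 correlated above 0.1 for each number at E13.5, and 6 at E12.5. With the replicate block the share called for the E11.5 to E12.5 change was 10% in place of 20%, and 4 calls were lost, all of that interval. For that interval the block joins equal numbers of different stages, which are of different embryos. The reversed results were differences that had not been called. For Pax6 at E12.5, ventral minus dorsal midbrain was 0.13 without dorsal midbrain and alar plate replicate 3 together, and from −2.52 to 0.13 without 1 library at a time (0.13 without dorsal midbrain replicate 3). The E12.5 minus E11.5 difference of Pax3 in the dorsal midbrain was 0.17 with the replicate block and −0.21 to 0.012 without 1 library at a time (0.012 without dorsal midbrain E12.5 replicate 3). Depth limits the low genes most at E14.5, where 3 reads came to 0.489 to 3.06 reads per 1000000.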
